A study of Mus musculus with 12 samples.

Results

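RNA was sequenced from bone marrow-derived macrophages (BMDMs), which are macrophages grown from the marrow of wild-type C57BL/6J mice in medium conditioned by L929 cells. The labels give neither the age nor the sex of the mice. The cells were embedded in floating gels of rat tail collagen I at 2 mg/ml (low collagen) or 7 mg/ml (high collagen), or were grown on tissue culture (TC) plates. Each kind of culture was left untreated or was given the type 2 cytokine IL-4 at 20 ng/ml, for 24 h by the sample names, while the extraction protocol gives a range of stimulation times for the gels and the methods of the study give another for TC plates. The 6 groups had 2 libraries each, and nothing in the labels says whether the 2 came from separate mice or separate cultures, so every p-value measures the spread between these libraries only. The comparisons ask how the genes of retinoid transport, synthesis and reception differed with IL-4 in each kind of culture, between the collagen concentrations, and between gels and TC plates.

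Vitamin A travels in blood as retinol bound to the carrier RBP4, whose main known sources are liver and fat. Inside cells, dehydrogenases such as RDH10 oxidize retinol to retinaldehyde, the reductase DHRS3 converts retinaldehyde back to retinol, and retinaldehyde dehydrogenases such as ALDH1A2 make retinoic acid, which CRABP2 carries to the nucleus. Retinoic acid acts through the receptors RARα and RARγ (genes Rara and Rarg), which bind DNA together with RXRα (Rxra), and some macrophages and dendritic cells are known to make retinoic acid with ALDH1A2.

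Abundance was given in TPM, a scale of transcript abundance that corrects for length and sums to nearly the same total in every library (999658 to 999723 TPM). The number of reads behind a value is not kept on this scale and is unknown. Of 34327 genes, 11543 to 11910 reached 1 TPM in a library. In bulk samples such as these, fewer expressing cells and less RNA per cell cannot be told apart. Differences are given on the scale log2(TPM + 1), each with its standard error (SE) from limma, and a gene was called higher or lower at a Benjamini-Hochberg adjusted p under 0.2, the threshold the study used in its own test. The genes were proposed with results of these libraries known, and Rbp4 was selected on its measured values in the gels, which rose with IL-4 and were lower at high collagen. It also reached the mean of 1 TPM asked of a tested gene only through its IL-4 libraries, so its values are a description with no test in every comparison. An exact permutation test of 2 libraries against 2 cannot give a two-sided p under 0.333.

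Because TPM share a fixed total, each difference was also taken after median-ratio rescaling, which sets the typical gene to no change. On the TPM scale the median log2 difference of all genes was −0.19 for IL-4 in low-collagen gels and −0.10 for IL-4 in high-collagen gels. Without IL-4 it was −0.13 for low-collagen gels and −0.16 for high-collagen gels, each against TC plates, and with IL-4 it was −0.28 and −0.20 for the same gels. It was −0.12 for the difference in IL-4 response between low-collagen gels and TC plates, and under 0.1 in size in the other comparisons. Values after rescaling are given where a call or a direction rests on this shift.

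All 9 macrophage markers were above 1 TPM in every library, the lowest value being 18.2 TPM for Fcgr1, with Lyz2 the most abundant. Their summed level nevertheless varied, from 1.769e+04 TPM on TC plates with IL-4 to 5.407e+04 TPM in untreated high-collagen gels. It was at most 2.866e+04 TPM on TC plates and at least 3.087e+04 TPM in gels, and most of it was Lyz2. Not all markers followed this order, since Cd68 was 2232 and 2282 TPM on untreated TC plates and 1418 to 1826 TPM in untreated gels, and with IL-4 it was 2851 and 2786 TPM on TC plates and 2165 to 2622 TPM in gels. Untreated, Cd14 too was higher on TC plates, at 729 and 724 TPM, than in gels, at 349 to 472 TPM, but with IL-4 it was lower there, at 81.9 and 77.6 TPM against 97.4 to 166 TPM.

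The stretch before the start of transcription is shown for 3 of the genes, Rbp4, Dhrs3 and Rarg. Rbp4 and Dhrs3 were higher with IL-4 in each kind of culture. Rarg had the largest log2 difference between gels and TC plates among the tested members. The sequences are from a set of RefSeq promoters (GRCm38.p6) that held 6 of the 8 genes but not Rdh10 and Crabp2. They run 5′ to 3′ over 250 bases on the gene's own strand, at chr19:38125322-38125571 (minus strand) for Rbp4, chr4:144892577-144892826 (plus strand) for Dhrs3 and chr15:102257523-102257772 (minus strand) for Rarg, with no annotated exon in any of these windows. Capitals mark letters that match a searched motif on either strand.
Rbp4: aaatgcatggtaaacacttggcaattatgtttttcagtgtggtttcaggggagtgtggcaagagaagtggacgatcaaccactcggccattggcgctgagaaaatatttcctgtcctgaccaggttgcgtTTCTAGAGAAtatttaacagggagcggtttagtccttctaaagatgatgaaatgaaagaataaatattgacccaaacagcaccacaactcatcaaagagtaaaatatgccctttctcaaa
Dhrs3: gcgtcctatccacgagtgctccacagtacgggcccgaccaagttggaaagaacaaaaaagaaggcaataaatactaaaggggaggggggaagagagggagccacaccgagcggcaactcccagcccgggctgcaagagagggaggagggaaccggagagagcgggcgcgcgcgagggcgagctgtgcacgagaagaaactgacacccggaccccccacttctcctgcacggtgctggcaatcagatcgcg
Rarg: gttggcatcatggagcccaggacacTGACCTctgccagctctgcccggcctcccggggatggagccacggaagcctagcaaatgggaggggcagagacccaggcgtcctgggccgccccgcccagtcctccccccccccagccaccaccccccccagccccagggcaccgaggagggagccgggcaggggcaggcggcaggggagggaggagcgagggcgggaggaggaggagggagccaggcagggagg
The motifs were TTCNNNNGAA, the spacing that the IL-4-activated factor STAT6 is known to bind, TTCNNNGAA, the spacing of other STAT factors, and the nuclear receptor half-sites AGGTCA and AGTTCA, of which the last can overlap the STAT motifs through its letters TTC. Among 32851 RefSeq promoters of the same length, TTCNNNNGAA was found in 5.85%, TTCNNNGAA in 7.02%, AGGTCA in 14.0% and AGTTCA in 11.8%. The Rbp4 window held TTCTAGAGAA from base −120 to base −111 before the start, and the Rarg window held TGACCT, which is AGGTCA on the other strand, from base −225 to base −220. The Dhrs3 window at the first of its 3 annotated starts held none of the motifs, while the windows of its other starts, which overlap exons and are not shown, share 1 TTCTGGAGAA. Both Rbp4 and Rarg have a second annotated start, whose window held none of the motifs, over exons for Rbp4 and free of them for Rarg (chr15:102246501-102246750). Among the other genes, the single window of Aldh1a2 held none, 1 of 4 windows of Rara held TTCAGTGAA overlapping AGTTCA, and 1 of 2 windows of Rxra held AGGTCA at 2 places. These matches describe letters and are not evidence of binding.

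Rbp4 (ENSMUSG00000024990, chr19:38116629-38125281, minus strand, GRCm38) was listed at 0 TPM in both untreated libraries of TC plates, of low-collagen gels and of high-collagen gels. With IL-4 its levels were 7.39 and 9.72 TPM on TC plates, 22.4 and 24.2 TPM in low-collagen gels, and 7.86 and 5.88 TPM in high-collagen gels. Transcripts of Rbp4 were thus estimated in all 6 libraries with IL-4, and a listed 0 at an unknown depth does not show that the other 6 had none. The low-collagen libraries with IL-4 were the highest of the 12, while TC plates and high-collagen gels overlapped.

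By ratio of mean TPM, Rbp4 with IL-4 was 3.40-fold higher in low-collagen than in high-collagen gels and 2.73-fold higher in low-collagen gels than on TC plates. The latter ratio sets the TC plates beside the gels the gene was chosen for and is, like the first, a description. The mean on TC plates was 1.25 times that in high-collagen gels, a difference of 1.69 TPM against a standard deviation of 1.65 TPM on TC plates, and the libraries of these groups interleaved. In log2 units high-collagen gels with IL-4 were below TC plates with IL-4 by −0.28, which shrank to −0.06 after median-ratio rescaling and after quantile normalization and ranged from −0.46 to −0.10 on leaving out single libraries, so no order of these groups is read from it. Low-collagen gels with IL-4 were above the same TC plates by 1.36, by 1.66 after rescaling, and by at least 1.18 on leaving out single libraries. High-collagen gels with IL-4 were lower than low-collagen gels with IL-4 by a log2 difference of −1.64, and by −1.72 after rescaling, given without a test. No fold with IL-4 is given for any culture because the untreated libraries were listed at 0. None of its exons overlaps another gene, and none of its 1341 words of 31 bases occurs in a transcript of another gene.

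**Figure D1:**
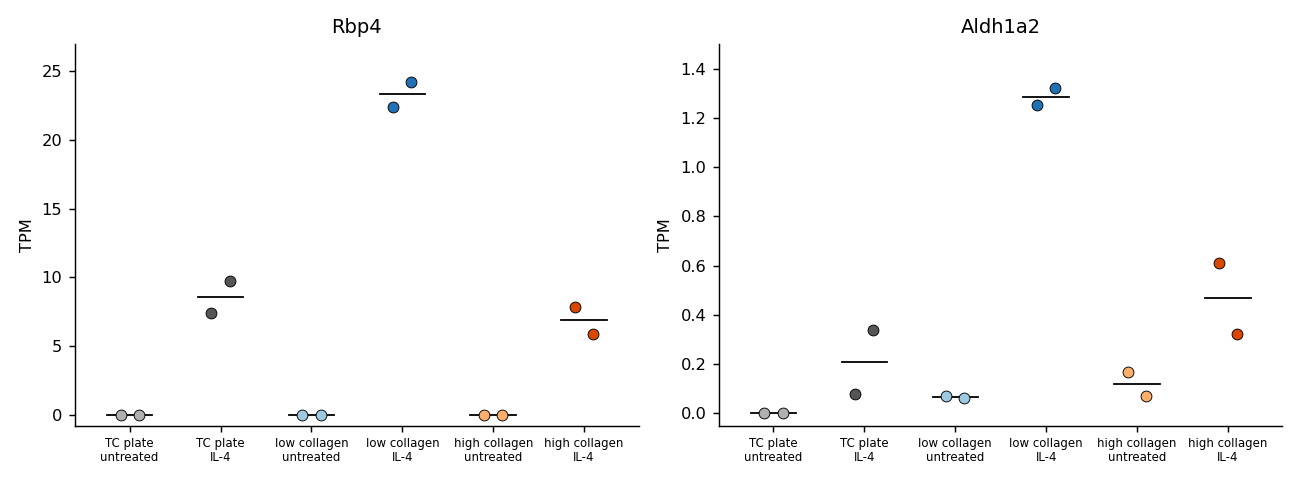
Rbp4 and Aldh1a2 in each of the 12 libraries, in TPM by group (points, libraries; bars, means of 2). Rbp4 was at 0 in the 6 untreated libraries and between 22.4 and 24.2 TPM in low-collagen gels with IL-4, the same libraries in which Aldh1a2 passed 1 TPM.

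Markers of cell types known for Rbp4 or for IL-4-responsive genes were read beside these values. The hepatocyte list had Alb, Apoa1, Serpina1a and Ttr at 0 in all 12 libraries. In the adipocyte list of 7 genes, Cfd and Cidec were at 0 in all libraries, Lep, Pck1 and Plin1 were under 0.5 TPM and Retn reached at most 0.773 TPM. Adipoq, a defining marker as well and the most abundant of the list, went the other way. It was at most 0.466 TPM on TC plates and in untreated gels, but with IL-4 it was 7.71 and 10.2 TPM in low-collagen gels and 6.39 and 4.15 TPM in high-collagen gels, and so moved with Rbp4 there. The summed adipocyte list was 0.894 and 0.669 TPM on untreated TC plates and 0.238 and 0.523 TPM on TC plates with IL-4. The low-collagen gels had 0.737 and 0.173 TPM untreated and 7.71 and 10.2 TPM with IL-4, and the high-collagen gels had 0.872 and 0.590 TPM untreated and 6.81 and 5.03 TPM with IL-4. TC plates with IL-4 had Rbp4 at 7.39 and 9.72 TPM with Adipoq at 0 and 0.466 TPM. The part of this list in the levels of Rbp4 was not tested.

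The summed dendritic cell and endothelial lists were also higher with IL-4, in each case through 1 gene. Of 8 dendritic cell genes, Itgax made up nearly all of the sum with IL-4, at 138 and 130 TPM on TC plates, while the other 7, among them Flt3, Xcr1 and Clec9a, were under 1 TPM in every library. The summed dendritic cell list was 14.2 and 14.5 TPM on untreated TC plates and 139 and 131 TPM on TC plates with IL-4. The low-collagen gels had 4.81 and 3.52 TPM untreated and 96.3 and 88.5 TPM with IL-4, and the high-collagen gels had 3.11 and 3.44 TPM untreated and 47.8 and 55.7 TPM with IL-4. Unlike Rbp4, this sum was highest on TC plates. Of 3 endothelial genes, Pecam1 rose with IL-4, from 0.426 and 0.340 TPM to 5.48 and 8.23 TPM on TC plates, while Kdr fell there from 5.18 and 5.03 TPM to 2.61 and 2.66 TPM. In gels Kdr was 0.727 to 1.02 TPM and Cdh5 at most 0.703 TPM, both of them lower with IL-4 at either collagen concentration. The summed endothelial cell list was 6.06 and 6.03 TPM on untreated TC plates and 9.20 and 11.03 TPM on TC plates with IL-4. The low-collagen gels had 2.97 and 2.23 TPM untreated and 14.0 and 13.7 TPM with IL-4, and the high-collagen gels had 2.91 and 2.44 TPM untreated and 11.6 and 9.59 TPM with IL-4. Whether other cells had a part in the levels of Rbp4 was not tested.

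Aldh1a2 (ENSMUSG00000013584, chr9:71215789-71296243, plus strand), whose enzyme makes retinoic acid from retinaldehyde, had a mean of 0.358 TPM over the 12 libraries and was too low to be tested. It was listed at 0 TPM in both untreated TC plate libraries and was 0.0767 and 0.337 TPM on TC plates with IL-4. In low-collagen gels it was 0.0690 and 0.0639 TPM untreated and 1.25 and 1.32 TPM with IL-4. In high-collagen gels it was 0.168 and 0.0703 TPM untreated and 0.612 and 0.322 TPM with IL-4. The low-collagen libraries with IL-4 lay above all others, with a mean 2.75 times that of high-collagen gels with IL-4, whose levels overlapped those of TC plates with IL-4. At these levels the precision is limited by a depth that is not known.

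Other genes that make or break down retinoic acid were as low. Aldh1a1 was listed at 0 TPM in all 12 libraries, Aldh1a3 reached at most 0.500 TPM and Aldh8a1 at most 0.250 TPM. The CYP26 enzymes, which degrade retinoic acid and whose genes are known targets of it, reached at most 0.110 TPM for Cyp26a1, 0.297 TPM for Cyp26b1 and 0.223 TPM for Cyp26c1. Crabp2 (ENSMUSG00000004885, chr3:87948666-87953376, plus strand), the carrier of retinoic acid to its receptors, was listed at 0 TPM in 10 libraries and was 0.205 TPM in 1 library of TC plates with IL-4 and 0.185 TPM in 1 library of untreated low-collagen gels. Its groups did not differ beyond their spread. Fabp5, which can also carry retinoic acid, was by contrast abundant, at 500 to 1134 TPM.

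Rdh10 (ENSMUSG00000025921, chr1:16105774-16133734, plus strand), which oxidizes retinol, was 3.63 and 4.99 TPM on untreated TC plates and 3.12 and 3.56 TPM on TC plates with IL-4. Untreated low-collagen gels had 4.03 and 3.59 TPM, and with IL-4 they had 2.01 and 1.87 TPM. Untreated high-collagen gels had 3.72 and 3.69 TPM, and with IL-4 they had 2.64 and 2.44 TPM. The IL-4 libraries lay below the untreated libraries in each kind of culture, and the low-collagen libraries with IL-4 were the lowest of all. The 3 untreated groups overlapped, and below them TC plates, high-collagen gels and low-collagen gels with IL-4 followed without overlap.

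In low-collagen gels Rdh10 was called lower with IL-4, by a log2 difference of −0.71 (SE 0.168, limma with Benjamini-Hochberg adjusted p 0.0164), and it was still called lower, by −0.56, after rescaling. In high-collagen gels the log2 difference was −0.41 (SE 0.168, limma with Benjamini-Hochberg adjusted p 0.147). That call was lost after rescaling (−0.33) and on leaving out any of the 4 libraries, with values from −0.45 without IL-4 replicate 1 to −0.37 without IL-4 replicate 2. On TC plates the log2 difference of −0.28 (SE 0.170) was not called (limma, Benjamini-Hochberg adjusted p 0.286), although without untreated replicate 1 it was −0.47 and was called. With IL-4, Rdh10 was lower in low-collagen gels than on TC plates by a log2 difference of −0.56 (SE 0.170, limma with Benjamini-Hochberg adjusted p 0.0159), and by −0.34, still called, after rescaling.

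Dhrs3 (ENSMUSG00000066026, chr4:144892827-144928209, plus strand), which turns retinaldehyde back into retinol and is itself a known target of retinoic acid, was the most abundant member. It was 299 and 331 TPM on untreated TC plates and 792 and 766 TPM on TC plates with IL-4. In low-collagen gels it was 644 and 584 TPM untreated and 938 and 971 TPM with IL-4. In high-collagen gels it was 455 and 434 TPM untreated and 819 and 860 TPM with IL-4. Each library with IL-4 was above every untreated library, and no groups overlapped. From the top, mean levels ran from low-collagen gels with IL-4 (954 TPM) through high-collagen gels with IL-4 (840 TPM), TC plates with IL-4 (779 TPM), untreated low-collagen gels (614 TPM) and untreated high-collagen gels (445 TPM) to untreated TC plates (315 TPM), each step larger than the spread of its groups. In these libraries Dhrs3 ranked between place 183 and place 507 among all genes.

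With IL-4, Dhrs3 was 2.47-fold higher by ratio of mean TPM on TC plates, a log2 difference of 1.31 (SE 0.0662, limma with Benjamini-Hochberg adjusted p 7.50e-07). The low-collagen gels gave a 1.55-fold rise, a log2 difference of 0.64 (SE 0.0645, limma with Benjamini-Hochberg adjusted p 3.25e-04). The high-collagen gels gave a 1.89-fold rise, a log2 difference of 0.92 (SE 0.0645, limma with Benjamini-Hochberg adjusted p 7.47e-05). The response was thus largest on TC plates, where the untreated level was lowest. The response in low-collagen gels minus that on TC plates was −0.67 (SE 0.0937, limma with Benjamini-Hochberg adjusted p 0.00222). For high-collagen gels minus TC plates it was −0.39 (SE 0.0937, limma with Benjamini-Hochberg adjusted p 0.0381). Both were still called after rescaling, at −0.52 and −0.33. Between the gels the responses differed by 0.28 (SE 0.0913), which was not called (limma, Benjamini-Hochberg adjusted p 0.431).

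Collagen concentration went with Dhrs3 without IL-4, where high-collagen gels were lower than low-collagen gels by a log2 difference of −0.46 (SE 0.0645, limma with Benjamini-Hochberg adjusted p 0.0408), in both libraries. With IL-4 the log2 difference was −0.18 (SE 0.0645, limma with Benjamini-Hochberg adjusted p 0.146). The latter call was lost on leaving out any of the 4 libraries, with values from −0.22 without high-collagen replicate 2 to −0.15 without high-collagen replicate 1. It was also lost after quantile normalization, which gave −0.09, without a mean-variance trend, without the filter and with the replicate number as a block, while after median-ratio rescaling the difference was −0.26 and was called. Without IL-4, low-collagen gels were above TC plates by a log2 difference of 0.96 (SE 0.0662, limma with Benjamini-Hochberg adjusted p 1.56e-06). For high-collagen gels against the same TC plates it was 0.50 (SE 0.0662, limma with Benjamini-Hochberg adjusted p 1.17e-04).

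Dhrs9, a retinol dehydrogenase of the same family, was also higher with IL-4 in each kind of culture. It was 12.1 and 9.51 TPM on untreated TC plates and 86.8 and 88.4 TPM on TC plates with IL-4. Untreated low-collagen gels had 1.77 and 2.26 TPM, and with IL-4 they had 58.9 and 52.8 TPM. Untreated high-collagen gels had 1.26 and 1.44 TPM, and with IL-4 they had 31.5 and 31.04 TPM. Its order among cultures thus differed from that of Dhrs3, with TC plates above low-collagen gels and low-collagen above high-collagen gels. By ratio of means it was 8.10-fold higher with IL-4 on TC plates, 27.7-fold in low-collagen gels and 23.1-fold in high-collagen gels. With IL-4, it was lower in high-collagen than in low-collagen gels by a log2 difference of −0.82 (SE 0.132, limma with Benjamini-Hochberg adjusted p 0.0219). Rdh11, a further retinaldehyde reductase, was 32.2 to 37.6 TPM on TC plates and 12.8 to 16.6 TPM in gels.

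**Figure D2:**
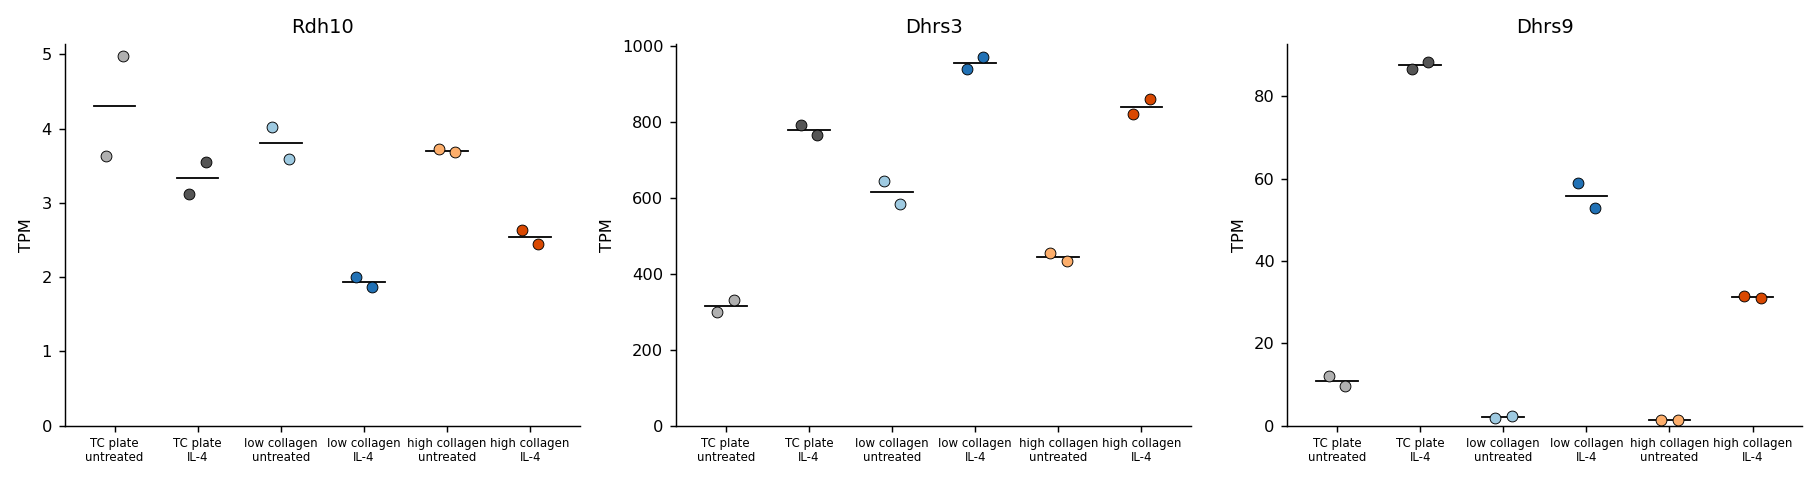
Rdh10, Dhrs3 and Dhrs9 in each of the 12 libraries, in TPM by group (points, libraries; bars, means of 2), each on its own axis from 0. Dhrs3 rose from 315 to 779 TPM on TC plates with IL-4 and was highest in low-collagen gels with IL-4 at 954 TPM, where Rdh10 was lowest at 1.94 TPM.

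Rara (ENSMUSG00000037992, chr11:98927818-98974942, plus strand), which encodes RARα, was 9.87 and 9.37 TPM on untreated TC plates and 11.8 and 10.8 TPM on TC plates with IL-4. Untreated low-collagen gels had 12.9 and 14.3 TPM, and with IL-4 they had 16.3 and 15.6 TPM. Untreated high-collagen gels had 14.9 and 14.4 TPM, and with IL-4 they had 14.0 and 13.5 TPM. All 8 gel libraries were above all 4 TC plate libraries, with low-collagen gels with IL-4 at the top, and untreated low-collagen gels and high-collagen gels with IL-4 overlapped. Without IL-4 the log2 difference from TC plates was 0.46 (SE 0.0977, limma with Benjamini-Hochberg adjusted p 0.00245) for low-collagen gels. For high-collagen gels it was 0.56 (SE 0.0977, limma with Benjamini-Hochberg adjusted p 7.08e-04). Of the 4336 words of 31 bases in its transcripts, 12 (0.277%) are shared with another gene.

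The log2 difference of Rara with IL-4 depended on the scale. It was 0.21 (SE 0.103, limma with Benjamini-Hochberg adjusted p 0.154) in low-collagen gels and 0.41, still called, after rescaling. On the TPM scale this call was lost without untreated replicate 1 (0.14) and without IL-4 replicate 1 (0.18) or replicate 2 (0.24). On TC plates it was 0.21 (SE 0.0977, limma with Benjamini-Hochberg adjusted p 0.162), or 0.26, still called, after rescaling, and the call on the TPM scale was lost without untreated replicate 1 (0.24), without untreated replicate 2 (0.18) and without IL-4 replicate 1 (0.15). High-collagen gels showed −0.09 (SE 0.103), not called (limma, Benjamini-Hochberg adjusted p 0.607), and 0.01 after rescaling. Rara in high against low collagen with IL-4 differed by −0.20 (SE 0.103), not called (limma, Benjamini-Hochberg adjusted p 0.294), and was called lower, at −0.27, after rescaling.

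Rarg (ENSMUSG00000001288, chr15:102234938-102257517, minus strand), which encodes RARγ, was 6.34 and 8.28 TPM on untreated TC plates and 11.5 and 12.4 TPM on TC plates with IL-4. In low-collagen gels it was 33.3 and 29.5 TPM untreated and 32.0 and 28.9 TPM with IL-4. In high-collagen gels it was 33.6 and 28.7 TPM untreated and 30.0 and 34.3 TPM with IL-4. The gel libraries stood together and well above TC plates, and the 4 gel groups did not differ beyond their spread. On TC plates both IL-4 libraries were above both untreated libraries.

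Other markers differed between gels and TC plates as well, beside the macrophage sum given above. The summed neutrophil list of 6 genes was 9.16 and 4.84 TPM on untreated TC plates and 4.08 and 8.37 TPM on TC plates with IL-4. The low-collagen gels had 23.3 and 31.1 TPM untreated and 20.1 and 14.5 TPM with IL-4, and the high-collagen gels had 18.2 and 13.5 TPM untreated and 12.8 and 13.8 TPM with IL-4. S100a9 was its most abundant gene by mean, at 0.422 to 3.59 TPM on TC plates and 7.87 to 17.8 TPM in gels. S100a8, which was above S100a9 on TC plates, overlapped between the cultures, at 2.79 to 6.17 TPM on TC plates and 2.93 to 12.5 TPM in gels, while Ly6g was at 0 and Elane and Mpo were under 0.5 TPM in all libraries. The summed T cell list of 3 genes was 1.87 and 2.01 TPM on untreated TC plates and 2.41 and 1.04 TPM on TC plates with IL-4. The low-collagen gels had 7.45 and 7.00 TPM untreated and 4.85 and 3.39 TPM with IL-4, and the high-collagen gels had 11.8 and 6.84 TPM untreated and 8.02 and 3.64 TPM with IL-4. Cd4 was the largest part of this sum, at 0.664 to 2.29 TPM on TC plates and 3.04 to 11.7 TPM in gels, with Cd3e and Cd8a under 0.5 TPM in all libraries. The part of these markers in the gap between gels and TC plates was not tested for Rarg or any other gene.

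Without IL-4, Rarg was 4.30-fold higher in low-collagen gels than on TC plates by ratio of mean TPM, a log2 difference of 1.97 (SE 0.136, limma with Benjamini-Hochberg adjusted p 1.55e-06). For high-collagen gels it was 4.26-fold higher, a log2 difference of 1.96 (SE 0.136, limma with Benjamini-Hochberg adjusted p 1.51e-06). With IL-4 the log2 difference from TC plates was 1.28 (SE 0.136, limma with Benjamini-Hochberg adjusted p 2.74e-05) in low-collagen gels. For high-collagen gels with IL-4 it was 1.35 (SE 0.136, limma with Benjamini-Hochberg adjusted p 1.76e-05). Collagen concentration thus did not set Rarg apart, and the gap lay between either gel and TC plates. By the methods of the study, cells on TC plates were seeded into wells and those in gels embedded in collagen, and the ways in which the 2 cultures differ cannot be told apart in this gap.

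IL-4 raised Rarg 1.63-fold on TC plates, a log2 difference of 0.65 (SE 0.136, limma with Benjamini-Hochberg adjusted p 0.00676). In low-collagen gels the difference was −0.04 (SE 0.119, limma with Benjamini-Hochberg adjusted p 0.816). In high-collagen gels it was 0.05 (SE 0.119, limma with Benjamini-Hochberg adjusted p 0.825), and neither was called. After rescaling both were positive, at 0.16 and 0.15, and still not called. The response in low-collagen gels minus that on TC plates was −0.69 (SE 0.192, limma with Benjamini-Hochberg adjusted p 0.0506). For high-collagen gels minus TC plates it was −0.60 (SE 0.192, limma with Benjamini-Hochberg adjusted p 0.103). The latter call was lost on leaving out untreated TC plate replicate 1 (−0.43), IL-4 TC plate replicate 2 (−0.56), untreated high-collagen replicate 1 (−0.49) or IL-4 high-collagen replicate 1 (−0.51).

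The balance of the RARs differed accordingly. On the TPM scale the ratio of Rarg to Rara was 0.643 to 1.15 in the 4 TC plate libraries and 1.86 to 2.58 in the 8 gel libraries, with no overlap. Rarg made up 39.0% to 53.3% of the summed RAR level on TC plates and 65.0% to 72.1% in gels. The remaining receptor of this type, Rarb, a known target of retinoic acid, reached at most 0.0920 TPM. This ratio within a library does not change with rescaling.

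**Figure D3:**
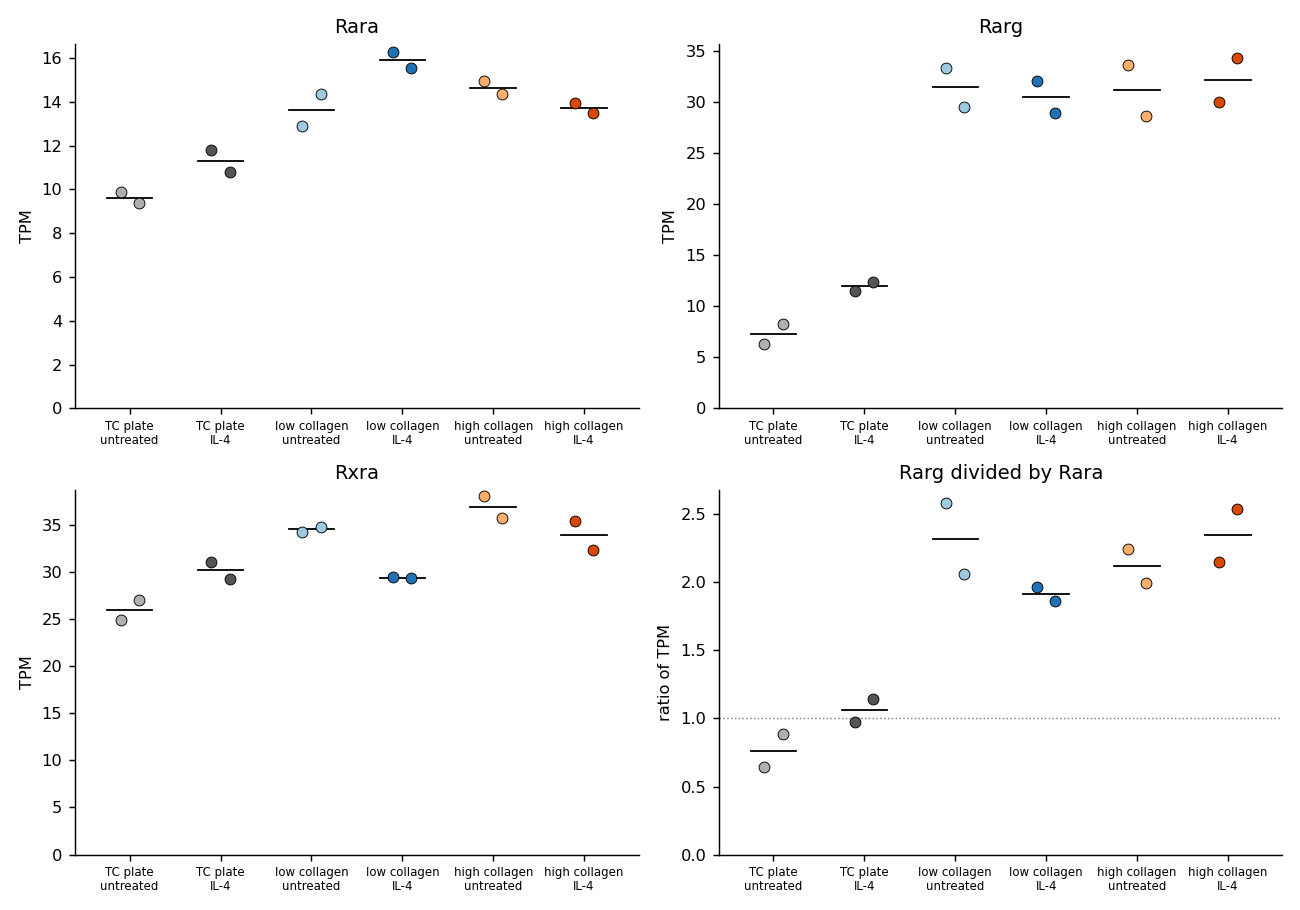
Rara, Rarg and Rxra in TPM, and the ratio of Rarg to Rara, in each of the 12 libraries by group (points, libraries; bars, means of 2; the dotted line marks equal levels). Rarg was 6.34 to 12.4 TPM on TC plates and 28.7 to 34.3 TPM in gels, and the ratio was 0.643 to 1.15 on TC plates and 1.86 to 2.58 in gels.

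Rxra (ENSMUSG00000015846, chr2:27676440-27762957, plus strand), which encodes the shared partner of the RARs, was 24.9 and 27.02 TPM on untreated TC plates and 31.01 and 29.3 TPM on TC plates with IL-4. Untreated low-collagen gels had 34.2 and 34.8 TPM, and with IL-4 they had 29.4 and 29.3 TPM. Untreated high-collagen gels had 38.0 and 35.7 TPM, and with IL-4 they had 35.4 and 32.4 TPM. Untreated high-collagen gels were the highest and untreated TC plates the lowest. Between them, untreated low-collagen gels overlapped high-collagen gels with IL-4, and TC plates with IL-4 overlapped low-collagen gels with IL-4.

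IL-4 went with more Rxra on TC plates, by a log2 difference of 0.21 (SE 0.0795, limma with Benjamini-Hochberg adjusted p 0.0918), a call lost without untreated replicate 1 (0.15) or IL-4 replicate 1 (0.17). Low-collagen gels had less Rxra with IL-4, by −0.23 (SE 0.0834, limma with Benjamini-Hochberg adjusted p 0.0768). That call was lost without untreated replicate 2 (−0.21) or IL-4 replicate 2 (−0.22), and after rescaling the difference was −0.02 and was not called, so that the fall was not larger than that of the typical gene. The response in low-collagen gels minus that on TC plates was −0.43 (SE 0.112, limma with Benjamini-Hochberg adjusted p 0.0380), and −0.29, still called, after rescaling. For high-collagen gels minus TC plates it was −0.33 (SE 0.112, limma with Benjamini-Hochberg adjusted p 0.129), and −0.27, no longer called, after rescaling. This call was also lost without untreated TC plate replicate 1 (−0.27), IL-4 TC plate replicate 1 (−0.29), untreated high-collagen replicate 1 (−0.28) or IL-4 high-collagen replicate 2 (−0.27).

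Against TC plates without IL-4, Rxra was higher by a log2 difference of 0.40 (SE 0.0795, limma with Benjamini-Hochberg adjusted p 0.00168) in low-collagen gels. High-collagen gels were higher by 0.49 (SE 0.0795, limma with Benjamini-Hochberg adjusted p 4.30e-04). With IL-4 the difference between low-collagen gels and TC plates was −0.04 (SE 0.0795), not called (limma, Benjamini-Hochberg adjusted p 0.721), and it turned to 0.27 and was called higher after rescaling. Rxrb, the related receptor gene, was 30.0 to 36.2 TPM on TC plates and 55.0 to 83.6 TPM in gels. Rxra therefore made up 42.8% to 49.4% of the summed RXR level on TC plates and 29.9% to 34.9% in gels.

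**Figure D4:**
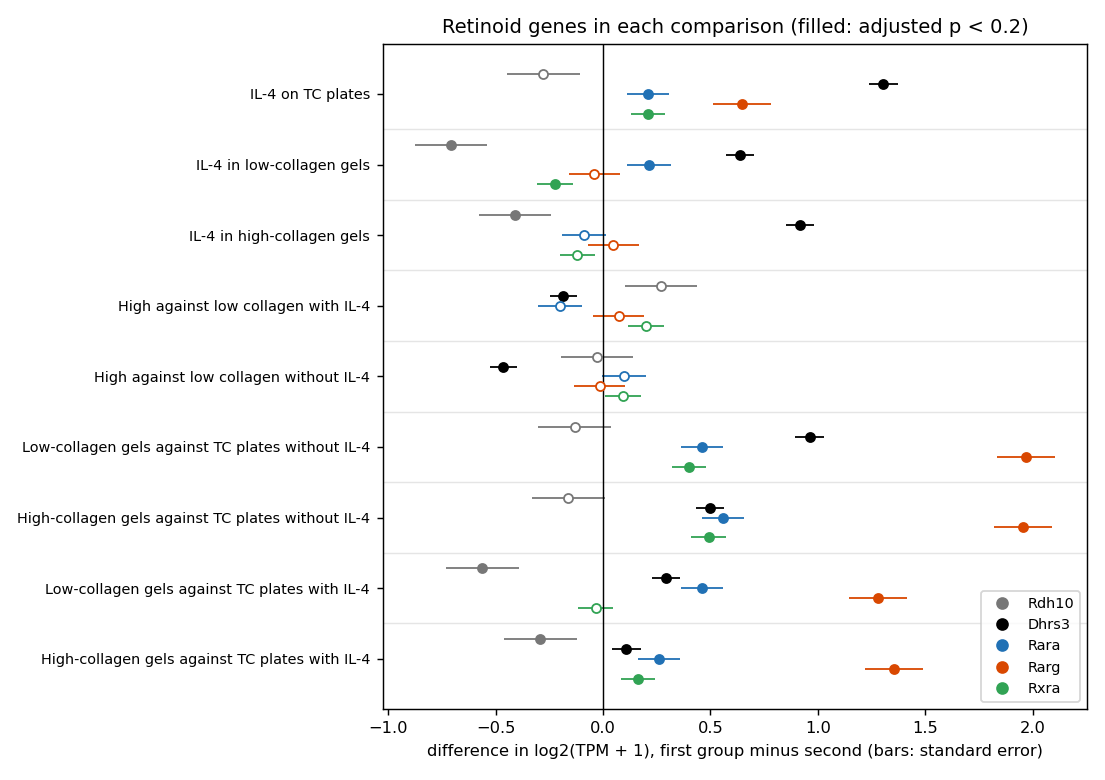
Differences on the scale log2(TPM + 1), first group minus second, for Rdh10, Dhrs3, Rara, Rarg and Rxra in 9 comparisons, with SE (filled points, adjusted p under 0.2 by limma with Benjamini-Hochberg adjustment). Dhrs3 rose with IL-4 in all 3 kinds of culture (1.31, 0.64 and 0.92), Rarg differed most between gels and TC plates (1.28 to 1.97), and the value of −0.04 for Rxra with IL-4 in low-collagen gels against TC plates turned to 0.27 after rescaling.

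Of the 8 genes, 6 passed a mean of 1 TPM, of which Rbp4 did so only through its IL-4 libraries and is not counted, which leaves 5. For IL-4 on TC plates, 4 of 5 were called, all higher (Dhrs3, Rara, Rarg and Rxra), beside 14.7% of all genes called higher and 24.0% called lower (18.8% and 20.2% after rescaling). In low-collagen gels, 2 of 5 were called higher with IL-4 (Dhrs3 and Rara) and 2 lower (Rdh10 and Rxra), beside 13.2% and 40.4% of all genes (23.5% and 21.1% after rescaling). In high-collagen gels, 1 of 5 was called higher with IL-4 (Dhrs3) and 1 lower (Rdh10), beside 11.5% and 22.8% of all genes (16.8% and 14.9% after rescaling). The list was proposed from IL-4 effects in gels, and nothing is read from these gel counts. On TC plates the share called higher was above that of all genes on both scales. The genes were proposed with results of these libraries known, so nothing is read from this count either. At an adjusted p under 0.05, 2 of those 4 calls (Dhrs3 and Rarg) would be kept.

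For high against low collagen with IL-4, 1 of 5 was called, Dhrs3, which was lower, beside 14.1% called higher and 6.99% called lower among all genes (10.3% and 11.4% after rescaling), and nothing is read from this comparison either. Without IL-4, Dhrs3 was again the 1 gene called, and lower, beside 3.23% called higher and 4.79% called lower among all genes (3.84% and 3.60% after rescaling). For the difference between the gels in their IL-4 response, limma called 0 of 5, with 1 at an unadjusted p under 0.05, beside 0.194% of all genes called higher and 0.169% called lower (0.118% and 0.211% after rescaling). Without IL-4, collagen concentration thus went with a call for Dhrs3 alone among these 5 genes, on both scales.

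Against untreated TC plates, 4 of 5 were called in untreated low-collagen gels, all higher (Dhrs3, Rara, Rarg and Rxra), beside 28.5% of all genes called higher and 44.3% called lower (37.1% and 36% after rescaling). In untreated high-collagen gels the same 4 were called, all higher, beside 28.0% and 45.5% (37.0% and 36.7% after rescaling). With IL-4, 3 of 5 were called higher in low-collagen gels (Dhrs3, Rara and Rarg) and 1 lower (Rdh10), beside 22.8% and 52.2% (36.4% and 35.7% after rescaling). In high-collagen gels with IL-4, 4 of 5 were called higher (Dhrs3, Rara, Rarg and Rxra) and 1 lower (Rdh10), beside 26.5% and 48.1% (37.6% and 36.4% after rescaling). These comparisons share their TC plate libraries. The members called higher made up a larger share than among all genes in each of the 4. In gels with IL-4 the single lower call was a smaller share than among all genes. Since the genes were proposed with results of these libraries known, nothing is read from these shares.

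In that last comparison several calls rested on single libraries. Dhrs3 (0.11, SE 0.0662, limma with Benjamini-Hochberg adjusted p 0.183) was not called without IL-4 TC plate replicate 1 (0.13) or replicate 2 (0.08) or without high-collagen replicate 2 (0.07), while after rescaling it was 0.36 and was called. Rdh10 (−0.29, SE 0.170, limma with Benjamini-Hochberg adjusted p 0.163) was not called without IL-4 TC plate replicate 2 (−0.22) or without high-collagen replicate 1 (−0.33) or replicate 2 (−0.25), nor after rescaling (−0.11). Rxra (0.16, SE 0.0795, limma with Benjamini-Hochberg adjusted p 0.102) was not called without IL-4 TC plate replicate 2 (0.12) or high-collagen replicate 1 (0.10), and after rescaling it was 0.40 and was called. Rara (0.26, SE 0.0977, limma with Benjamini-Hochberg adjusted p 0.0408) was called on both scales, at 0.49 after rescaling. For low-collagen gels with IL-4 against the same TC plates, rescaling moved Dhrs3 from 0.29 to 0.61 and Rara from 0.46 to 0.76, both called on either scale.

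For low-collagen gels minus TC plates, the IL-4 response was called for 3 of 5, all lower (Dhrs3, Rarg and Rxra), beside 18.7% of all genes called lower and 9.30% called higher (10.1% and 14.5% after rescaling). All 3 were still called after rescaling. For high-collagen gels minus TC plates the same 3 were called, all lower, beside 8.61% and 8.66% (6.99% and 11.1% after rescaling), and after rescaling 2 were (Dhrs3 and Rarg), without Rxra (−0.27). These differences share the TC plate libraries. In both gels, then, the log2 response of Dhrs3 and Rarg was below that on TC plates on either scale.

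Wider lists of retinoid genes held 68 genes, of which 36 were tested. With IL-4 on TC plates, 11 of 36 were called higher and 7 lower (11 and 5 after rescaling), beside 14.7% and 24.0% of all genes (18.8% and 20.2%). In low-collagen gels with IL-4 there were 5 higher and 13 lower (7 and 9 after rescaling), beside 13.2% and 40.4% (23.5% and 21.1%). In high-collagen gels with IL-4 there were 4 higher and 10 lower (4 and 5 after rescaling), beside 11.5% and 22.8% (16.8% and 14.9%). High against low collagen with IL-4 gave 4 higher and 5 lower (3 and 6 after rescaling), beside 14.1% and 6.99% (10.3% and 11.4%). Without IL-4 it gave 0 higher and 4 lower (1 and 4 after rescaling), beside 3.23% and 4.79% (3.84% and 3.60%). The lists thus held calls in both directions in most comparisons.

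Low-collagen gels against TC plates without IL-4 gave 15 of 36 higher and 10 lower (17 and 8 after rescaling), beside 28.5% and 44.3% of all genes (37.1% and 36% after rescaling). With IL-4 they gave 14 higher and 18 lower (15 and 14 after rescaling), beside 22.8% and 52.2% (36.4% and 35.7%). High-collagen gels against TC plates without IL-4 gave 15 higher and 11 lower (18 and 8 after rescaling), beside 28.0% and 45.5% (37.0% and 36.7%). With IL-4 they gave 12 higher and 17 lower (14 and 11 after rescaling), beside 26.5% and 48.1% (37.6% and 36.4%). The response to IL-4 at low collagen minus that on TC plates gave 1 higher and 10 lower (5 and 8 after rescaling), beside 9.30% and 18.7% (14.5% and 10.1%). At high collagen, minus TC plates, it gave 3 higher and 8 lower (3 and 7 after rescaling), beside 8.66% and 8.61% (11.1% and 6.99%).

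The median log2 difference of the lists with IL-4 was −0.05 on TC plates, −0.18 in low-collagen gels and −0.12 in high-collagen gels, beside −0.06, −0.19 and −0.10 for all genes. Against TC plates with IL-4 it was −0.40 for low-collagen gels and −0.22 for high-collagen gels, beside −0.28 and −0.20 for all genes. Without IL-4 the same gels gave −0.01 and 0.06, beside −0.13 and −0.16. For the response in gels minus that on TC plates it was −0.30 for low-collagen gels and −0.23 for high-collagen gels, beside −0.12 and −0.03. These medians run over genes that went both ways, and nothing is read from them.

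Within these lists, 4 of 4 tested receptor genes (Rara, Rarg, Rxra and Rxrb) were called higher than on TC plates without IL-4 in both gels, on both scales, beside 28.5% of all genes at low and 28.0% at high collagen (37.1% and 37.0% after rescaling). The receptor cofactors did not share this. Without IL-4, 0 of 9 were called higher and 3 lower at low collagen, and 0 higher and 4 lower at high collagen, beside 44.3% and 45.5% of all genes called lower, while after rescaling 1 was higher and 3 lower at low and 2 higher and 1 lower at high collagen. With IL-4, 9 of 9 were called lower than on TC plates at low collagen and 7 of 9 at high collagen, beside 52.2% and 48.1% of all genes, but after rescaling 5 and 3 were, beside 35.7% and 36.4%. Of the ester storage genes, Dgat1 and Lipe were tested. Both were called higher in untreated low-collagen gels, and in untreated high-collagen gels Dgat1 was called on both scales and Lipe only after rescaling (0.12 before and 0.30 after). Fabp5 was higher with IL-4 on TC plates (0.36), in low-collagen gels (0.35) and in high-collagen gels (0.80), in log2 units, and after rescaling by 0.42, 0.56 and 0.91. The rise at high collagen started from a lower level, 500 and 547 TPM untreated against 847 and 905 TPM at low collagen, a log2 difference of −0.74 (SE 0.0621, limma with Benjamini-Hochberg adjusted p 0.00713) that was called on leaving out any single library. With IL-4 Fabp5 was also lower at high than at low collagen, by −0.29 (SE 0.0621, limma with Benjamini-Hochberg adjusted p 0.0425), a call lost without high-collagen replicate 2 (−0.28). Pparg, a partner of RXRα, was higher with IL-4 by 1.80 on TC plates, 1.54 in low-collagen gels and 1.50 in high-collagen gels, and it was 9.09 to 35.2 TPM on TC plates and 3.51 to 16.9 TPM in gels. Thra, the gene of another RXR partner, was 5.91 to 7.85 TPM on TC plates and 20.2 to 32.0 TPM in gels. Bco2, which cleaves carotenoids, was 0.904 to 2.89 TPM on TC plates and 6.55 to 15.05 TPM in gels.

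Among known targets of retinoic acid, Tgm2 was 349 and 358 TPM on untreated TC plates and 700.2 and 668 TPM on TC plates with IL-4, and 328 to 410 TPM in the 8 gel libraries. It was higher with IL-4 on TC plates by a log2 difference of 0.95 (SE 0.0783, limma with Benjamini-Hochberg adjusted p 1.84e-05). In low-collagen gels the difference with IL-4 was 0.06, not called, and 0.26, called higher, after rescaling. In high-collagen gels it was −0.08, and 0.02 after rescaling, neither called. The response was smaller in low-collagen gels by −0.89 (SE 0.111, limma with Benjamini-Hochberg adjusted p 0.00114) and in high-collagen gels by −1.03 (SE 0.111, limma with Benjamini-Hochberg adjusted p 7.58e-04). Dhrs3 and Tgm2 of this list, and Rarg, which is not on it, thus each had a larger IL-4 response on TC plates than in either gel. Nrip1, a further target on the list, had the same sign for low-collagen gels minus TC plates, at −0.78. Unlike Tgm2 on TC plates, Nrip1 was lower with IL-4. The difference was −1.11 in low-collagen gels (SE 0.160, limma with Benjamini-Hochberg adjusted p 0.00179). In high-collagen gels Nrip1 was lower by −0.65 (SE 0.160, limma with Benjamini-Hochberg adjusted p 0.0314). On TC plates its difference of −0.33 (SE 0.159, limma with Benjamini-Hochberg adjusted p 0.171) was not called after rescaling (−0.28), nor without untreated replicate 1 (−0.29), untreated replicate 2 (−0.38) or IL-4 replicate 1 (−0.17). Cd38, also on the list, was under 2 TPM in every library and was not called with IL-4 in any culture.

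The genes whose levels followed Rbp4 most closely over the 12 libraries, by Pearson r of log2(TPM + 1) among 10467 genes, were Ang2 (0.993), Chil4 (0.993), Scn3a (0.989), Tarm1 (0.989) and Timp2 (0.988). Ang2, Chil4 and Scn3a were also at 0 TPM on average in the 3 untreated groups, and with IL-4 their mean levels were 16.95, 10.2 and 11.3 TPM in low-collagen gels, 7.33, 3.23 and 3.58 TPM in high-collagen gels and 10.2, 5.95 and 3.12 TPM on TC plates. For Dhrs3 the closest were Atp6v0d2 (0.980), Aplp2 (0.979), Smap2 (0.967), Matk (0.963) and Ahnak2 (0.963). These values describe likeness of pattern across groups, and they carry no test.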

How the data were processed

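The authors estimated transcript abundance from stranded mRNA libraries with kallisto 0.46.1 on GRCm38 and deposited TPM per gene. How transcripts were joined into genes is not stated, and the depth of each library is unknown. Of 34456 lines, 129 repeats were removed. limma 3.58.1 (R 4.3.3) was fitted to log2(TPM + 1) across all genes whose mean reached 1 TPM, with 1 mean per group, a mean-variance trend and p-values adjusted by Benjamini-Hochberg. Comparisons among gels used the 8 gel libraries (11852 genes) and those with TC plates all 12 (11865 genes). The fit was tested on simulated data. Tables and plots used Python 3.11.15, numpy 2.4.6, pandas 2.3.3 and matplotlib 3.10.9, positions came from GENCODE (GRCm38) and upstream sequences from RefSeq.

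The 8 members and the lists of retinoid and marker genes were chosen with earlier results of these data known. The list of IL-4-treated macrophage markers and 1 gene of the retinoid lists are not reported here. Named genes are the members, genes of the retinoid lists that were called with a mean of at least 5 TPM or share a member's role, and the 5 most like Rbp4 or Dhrs3 by Pearson r among genes with a highest group mean of at least 5 TPM. Other settings tried were an adjusted p under 0.05, a required 2-fold change, median-ratio rescaling, a pseudocount of 0.1, quantile normalization, a filter at 5 TPM or none, blocking on replicate number, dropping the variance trend, other libraries in the fit, each library left out in turn, and likeness over the 6 group means.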

Additional observations from a re-analysis of the deposited data

Results flagged for a closer look

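The IL-4 response, taken as a log2 difference, was tested for a difference between gels and TC plates by limma with Benjamini-Hochberg adjustment, and the retinoid genes with a mean of at least 5 TPM or of the members' list that were called are given here. Negative values mean a smaller rise, a larger fall or a fall in place of a rise in the gel. All of these comparisons share the TC plate libraries.

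For low-collagen gels minus TC plates, the values were −0.67 for Dhrs3, −0.69 for Rarg and −0.43 for Rxra. Further genes were Dhrs9 at 1.32, Tgm2 at −0.89, Nr4a1 at −2.44 and Nrip1 at −0.78, each called also after rescaling and on leaving out any library of these groups. Ncor1, at −0.67, was not called without untreated TC plate replicate 1 (−0.62) or replicate 2 (−0.71), IL-4 TC plate replicate 2 (−0.56), untreated low-collagen replicate 2 (−0.55) or IL-4 low-collagen replicate 2 (−0.61). Retsat, at −0.55, was not called without untreated TC plate replicate 2 (−0.42), IL-4 TC plate replicate 2 (−0.43), untreated low-collagen replicate 2 (−0.43) or IL-4 low-collagen replicate 2 (−0.51). Nr1h2, at −0.28, and Rxrb, at −0.30, were not called after median-ratio rescaling (−0.14 and −0.15). Nr1h2 was also not called without untreated TC plate replicate 1 (−0.22), IL-4 TC plate replicate 1 (−0.17), untreated low-collagen replicate 1 (−0.29) or replicate 2 (−0.27), or IL-4 low-collagen replicate 1 (−0.33) or replicate 2 (−0.24). Rxrb was not called without untreated TC plate replicate 1 (−0.22), IL-4 TC plate replicate 1 (−0.20), untreated low-collagen replicate 1 (−0.20), or IL-4 low-collagen replicate 1 (−0.29) or replicate 2 (−0.31).

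For high-collagen gels minus TC plates, the values were −0.39 for Dhrs3, −0.60 for Rarg and −0.33 for Rxra, of which Rxra was not called after rescaling (−0.27). Rarg was not called without untreated TC plate replicate 1 (−0.43), IL-4 TC plate replicate 2 (−0.56), untreated high-collagen replicate 1 (−0.49) or IL-4 high-collagen replicate 1 (−0.51). Rxra was not called without untreated TC plate replicate 1 (−0.27), IL-4 TC plate replicate 1 (−0.29), untreated high-collagen replicate 1 (−0.28) or IL-4 high-collagen replicate 2 (−0.27). Dhrs9 at 0.86, Fabp5 at 0.44, Tgm2 at −1.03 and Nr4a1 at −1.58 were called also after rescaling and on leaving out any library of these groups. Lipe, at 0.62, was not called without IL-4 high-collagen replicate 1 (0.49). Retsat, at −0.62, was not called without untreated TC plate replicate 2 (−0.49), IL-4 TC plate replicate 2 (−0.50), untreated high-collagen replicate 1 (−0.54) or IL-4 high-collagen replicate 1 (−0.52). Stra6l, at −0.50, was called only with IL-4 high-collagen replicate 2 left out among the single omissions, which otherwise ranged from −0.55 without untreated high-collagen replicate 1 to −0.39 without IL-4 high-collagen replicate 1. Rdh13, at −0.89, was not called on leaving out any of the 8 libraries, with values from −1.01 without untreated high-collagen replicate 2 to −0.78 without untreated high-collagen replicate 1.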

How the results depend on the processing

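Over the alternatives other than single omissions, 517 of 588 tested values of single members kept their side of the threshold. A further 61 lost a call, 8 gained one, and 2 changed sign with a call in at least 1 setting. Values called in neither setting counted as kept even where their sign changed. Rarg with IL-4 in low-collagen gels was such a value (−0.04, and 0.16 after rescaling). On leaving out single libraries, 264 of 300 kept their side, 34 lost a call and 2 gained one. The lone library of a group was then assumed to vary like the other groups. The interaction of collagen and IL-4 gave 0 members by limma under every alternative, with 1 at an unadjusted p under 0.05 in the main setting.

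Rxra in low-collagen gels with IL-4 against TC plates with IL-4 reversed from −0.04 to 0.27 after median-ratio rescaling and to 0.30 after quantile normalization. For other genes named, Fabp5 with IL-4 reversed to −0.0665 in low-collagen gels against TC plates (quantile) and to 0.0813 in high-collagen gels against TC plates (median ratio), and Retsat in high-collagen gels against TC plates without IL-4 to 0.23 (quantile). The cause was not tested. Of 2040 values of the other named genes, 1844 kept their side of the threshold, counted in the same way.

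Counts of members called that moved by over 1.5 times are given first, and where no cause is given the cause was not tested. Asking for a 2-fold change as well left 0 of 4 for IL-4 in low-collagen gels, 0 of 2 in high-collagen gels, 0 of 1 for collagen with and without IL-4, 1 of 4 for IL-4 on TC plates, 1 in each comparison of gels with TC plates, and 0 of 3 for both response differences. An adjusted p under 0.05 left 2 for IL-4 in low-collagen gels, 1 in high-collagen gels, 0 for collagen with IL-4, 2 on TC plates, 2 for high-collagen gels with IL-4 against TC plates with IL-4, and 1 for the response difference of high-collagen gels. Without the filter the counts were 1 for IL-4 in high-collagen gels, 0 for collagen with IL-4 and 3 for high-collagen gels with IL-4 against TC plates with IL-4. With a mean TPM of at least 5, which removes Rdh10, they were 1 for IL-4 in high-collagen gels and 2 for collagen with IL-4. Median-ratio rescaling gave 1 and 2 for the same pair, quantile normalization 1 for IL-4 in high-collagen gels, and all 12 libraries in the fit 2 for collagen with IL-4. On leaving out single libraries the counts were 2 to 3 for IL-4 in low-collagen gels, 1 in high-collagen gels, 0 for collagen with IL-4, 2 to 4 on TC plates, 2 to 4 for high-collagen gels with IL-4 against TC plates with IL-4, and 1 to 3 for the response difference of high-collagen gels.

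Smaller moves of these counts, apart from single omissions within the ranges above, were as follows. For IL-4 in low-collagen gels, 3 of 4 were left with a mean TPM of at least 5, rescaling, quantile normalization or the replicate block. On TC plates there were 5 without a mean-variance trend and 3 when the fit held just the libraries compared. For low-collagen gels with IL-4 against TC plates with IL-4 there were 3 under the stricter filter (5 TPM), and 5 after rescaling or quantile normalization. High-collagen gels with IL-4 against TC plates with IL-4 had 4 of 5 with a mean TPM of at least 5, without the trend, with rescaling, with the block or when the fit held just the libraries compared. Both response differences had 4 without the trend. The one for low-collagen gels had 2 at an adjusted p under 0.05, and the one for high-collagen gels had 2 with rescaling. Without untreated replicate 1 of the TC plates, high-collagen gels against TC plates without IL-4 had 5. Dhrs3 for collagen with IL-4 lost its call without the trend and with quantile normalization, where the count stayed at 1 through Rdh10 and Rara.

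The labels share replicate numbers, but same-numbered libraries did not deviate together (correlations from −0.123 to 0.109 over 15 pairs of groups). With the replicate number as a block, 1 member was called for IL-4 in high-collagen gels (2 without the block) and 0 for collagen with IL-4 (1 without it). Rara for IL-4 in low-collagen gels and Dhrs3 in high-collagen gels with IL-4 against TC plates with IL-4 were also no longer called. The genes most like Rbp4 shared 3 of 5 names when ranked over the 6 group means. For Dhrs3 the names shared were Atp6v0d2 and Aplp2, without Smap2, Matk and Ahnak2.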

Other observations

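With 2 libraries a group, each spread rests on few values and is borrowed across genes, and a missing call does not show that a difference is absent. Levels under 1 TPM, which include Aldh1a2, Crabp2 and the CYP26 genes, have a precision that the table does not reveal, since TPM keep no depth. RNA levels say nothing of retinoid amounts, receptor activity or secreted RBP4. TC plates and gels differ in more than collagen, and these differences cannot be told apart here. Low and high collagen differ in concentration and in what follows from it, which these libraries do not separate.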
